A study of Mus musculus with 31 samples.

Results

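Livers of the ChREBPβ line differed widely in the mRNA of Fasn, the enzyme that builds palmitate, although every mouse had gone through the same fast of 24 hours and refeeding of 18 hours, with water that held 20% glucose. The 16 livers of this line, of 31 arrays in the series, were grouped by a measured value. Members were chosen by the deposited log2 value of 1 Fasn probe, above or below 17.55, which gave 7 Fasn-high and 9 Fasn-low livers. The line comprised 8 male C57BL6/J mice lacking ChREBPβ, in which the exon specific to this isoform had been deleted with a pair of guide RNAs, and 8 WT littermates. Which of the 2 founder lines derived on this background each mouse belonged to is not given in the sources used here. Fasn-high livers came from 5 ChREBPβ-deficient mice and 2 WT littermates, and Fasn-low livers from 3 ChREBPβ-deficient mice and 6 WT littermates. A second line, of 7 total ChREBP-KO mice, which lack both isoforms in the whole body, and their WT littermates, labelled as 8 samples of which a near-identical pair was counted as 1, took no part in the split and received the same fasting and refeeding. Expression was read on one-color Agilent arrays, 1 for each labelled sample, and levels are given as log2 signal after quantile normalization, so a difference of 1 is a doubling. Since the split was made on a measured value, differences between Fasn-high and Fasn-low livers are descriptions adjusted for genotype and carry no p-value.

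ChREBP, encoded by Mlxipl, is a transcription factor activated by glucose metabolites that induces genes of glycolysis and of de novo lipogenesis. In liver it acts beside SREBP1c, encoded by Srebf1, which responds to insulin. The lipogenic pathway starts with citrate cleavage by ATP citrate lyase (Acly), followed by acetyl-CoA carboxylase (Acaca) and fatty acid synthase (Fasn), and its products are elongated by Elovl6 and desaturated by Scd1. Malic enzyme (Me1) and the pentose phosphate pathway supply the NADPH that each round of synthesis consumes.

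The promoters of Fasn, of the elongase Elovl6, of Acly and of the lipase Pnpla5 are shown. Fasn defined the groups, and the mRNA of the other 3 rose with it among WT littermates of the second line as well. The windows are the 250 bases before the annotated start in RefSeq on build GRCm38.p6, read 5′ to 3′ on the gene's strand, with motif matches in capitals. They lie at chr11:120824548-120824797 on the minus strand for Fasn, chr3:129532136-129532385 on the plus strand for Elovl6, chr11:100528001-100528250 on the minus strand for Acly and chr15:84123176-84123425 on the minus strand for Pnpla5.
Fasn: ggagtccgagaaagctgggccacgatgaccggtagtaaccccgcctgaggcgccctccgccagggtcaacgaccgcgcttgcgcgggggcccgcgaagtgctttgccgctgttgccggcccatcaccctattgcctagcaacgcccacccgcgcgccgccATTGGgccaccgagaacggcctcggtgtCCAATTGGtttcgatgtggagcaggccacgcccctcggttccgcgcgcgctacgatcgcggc
Elovl6: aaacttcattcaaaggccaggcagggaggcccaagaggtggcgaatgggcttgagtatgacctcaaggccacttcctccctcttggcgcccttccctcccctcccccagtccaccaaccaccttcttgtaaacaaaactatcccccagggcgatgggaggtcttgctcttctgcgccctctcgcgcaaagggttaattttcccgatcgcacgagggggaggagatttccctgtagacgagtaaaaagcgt
Acly: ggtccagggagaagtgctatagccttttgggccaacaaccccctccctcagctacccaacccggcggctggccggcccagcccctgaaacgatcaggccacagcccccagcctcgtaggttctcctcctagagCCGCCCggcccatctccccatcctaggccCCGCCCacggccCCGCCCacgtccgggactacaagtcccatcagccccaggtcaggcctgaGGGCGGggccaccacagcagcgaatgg
Pnpla5: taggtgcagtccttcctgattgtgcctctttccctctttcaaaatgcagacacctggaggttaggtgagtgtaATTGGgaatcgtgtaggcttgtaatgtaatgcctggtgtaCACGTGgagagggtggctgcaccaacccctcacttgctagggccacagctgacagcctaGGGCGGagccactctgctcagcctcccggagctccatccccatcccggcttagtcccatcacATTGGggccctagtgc
Capitals mark 4 motifs searched on both strands, the E-box CACGTG, the SRE-like TCACNCCAC, the GC box GGGCGG and the CCAAT box CCAAT. The Fasn window held 3 CCAAT boxes, of which a pair overlap on opposite strands. The Acly window held 4 GC boxes, and the Pnpla5 window held 1 E-box, 1 GC box and 2 CCAAT boxes. The Elovl6 window held no match, which says only that these letters are absent from this window. Of the 17 genes in the list of the lipogenic core, 14 had a promoter in the table, and 3 of these held an E-box, 0 the SRE-like motif, 8 a GC box and 9 a CCAAT box. Among all 32817 promoters of this length the shares were 6.02%, 1.05%, 32.7% and 33.8%. These shares count single promoters, whereas a gene of the list counted if any of its promoters held the motif. A match is a description of the letters and not a binding site.

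Fasn ranged over 1.29 log2 units in the line. Deposited values of the Fasn-high livers were 17.59, 17.76, 17.77, 18.09 and 18.21 in ChREBPβ-deficient mice and 17.66 and 18.23 in WT littermates. Those of the Fasn-low livers were 16.93, 17.25 and 17.50 in ChREBPβ-deficient mice and 17.00, 17.18, 17.21, 17.33, 17.35 and 17.48 in WT littermates. The values just inside and just outside the threshold, 17.59 and 17.50, were both from ChREBPβ-deficient mice and lay close together beside the spread of the line. The Fasn probe lies on the minus strand at chr11:120668460-120668519 of build mm9, the build of the array annotation.

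**Figure D1:**
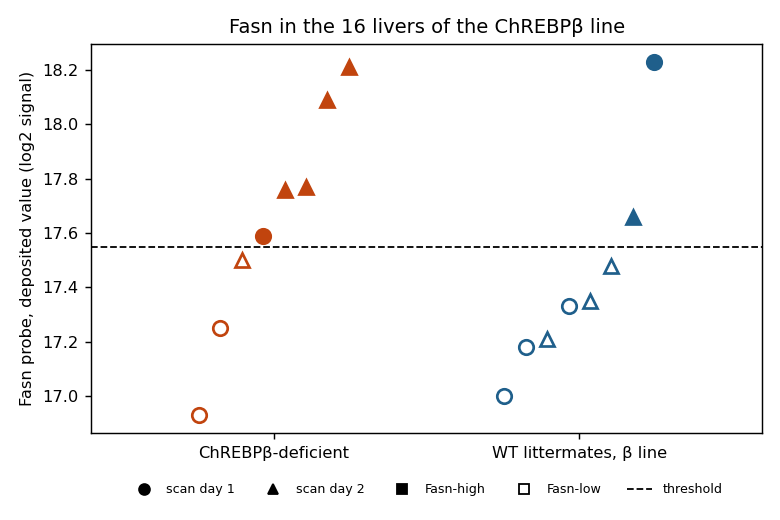
Deposited log2 value of the Fasn probe in each of the 16 livers of the ChREBPβ line, by genotype, with 1 point per liver. Filled symbols are the 7 Fasn-high livers, open symbols the 9 Fasn-low livers, circles and triangles the 2 scan days, and the dashed line the threshold of 17.55. Both genotypes lie on both sides of the line, from 16.93 to 18.23.

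Fasn-high livers were scanned in 2 cases on the first and in 5 cases on the second of 2 scan days, against 5 and 4 for Fasn-low livers. Most differences of the named genes were smaller within the second day than within the first. So was that of Fasn, which defined the groups, at 0.78 on the first and 0.38 on the second day. Values within each day are given for the genes the results turn on. The genotype labels were checked on Mlxipl. The brightest of its 3 probes read 14.40 to 14.84 in the 8 ChREBPβ-deficient livers and 14.88 to 15.33 in their 8 WT littermates, without overlap. Whether this probe touches the deleted exon is not given in the sources used here. The dimmer probes did overlap between these genotypes, at 10.84 to 11.08 against 10.75 to 11.25 and at 10.30 to 10.88 against 10.49 to 11.70. Mlxipl itself differed little with Fasn. On the brightest probe its lowest, median and highest levels were 14.40, 14.70 and 15.26 in Fasn-high livers and 14.52, 14.94 and 15.33 in Fasn-low livers. Hepatocyte markers were bright in both groups, with the mean of 7 measured markers between 17.32 and 17.49 in Fasn-high and between 17.35 and 17.55 in Fasn-low livers. The mean level of 9 Kupffer cell and leukocyte markers lay between 9.39 and 10.01 in Fasn-high and between 9.44 and 10.23 in Fasn-low livers. Exocrine pancreas markers, of which 6 were measured, had means of 8.85 to 9.21 and 8.73 to 9.20. In whole liver, fewer cells of a type and less RNA per cell cannot be told apart.

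Of 23968 genes, 84 (0.35%) were at least 1.5-fold higher and 114 (0.476%) at least 1.5-fold lower in Fasn-high livers. In 76 of the 84 and 110 of the 114 the difference had the same direction in both genotypes, and in 75 and 110 it had the same direction on both scan days. By comparison, 6665 of the 12026 genes with any positive difference and 6684 of the 11942 with any negative difference had the same direction in both genotypes, and 6755 and 6633 on both scan days. At least 1.5-fold within each genotype were 23 of the 84 and 46 of the 114. The WT value rests on 2 Fasn-high livers, and without WT replicate 5, the liver with the highest Fasn, 51 genes were at least 1.5-fold higher. In 11 genes (0.0459%) every Fasn-high liver exceeded every Fasn-low liver, and in 14 (0.0584%) every Fasn-high liver lay below, with Fasn among the former by construction. Both criteria were met by 4 higher genes, Fasn, Elovl6, Ttc23 and the unnamed transcript NAP092820-001, and by 2 lower genes, Camk2n2 and Nfkbiz. Counts past 1.5-fold in the gene lists below are to be read beside the shares of 0.35% and 0.476%.

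Fatty acid synthesis genes had the highest median of the 21 lists examined. Of the 17 genes of the lipogenic core, all measured, 8 including Fasn were at least 1.5-fold higher in Fasn-high livers and 0 were lower by that amount, beside the 0.35% and 0.476% over all genes. The median difference of the list was 0.28, against 0 over all genes. Elovl6, which elongates palmitate to stearate, showed the largest difference of the list. Its levels were 14.23, 14.30 and 15.32 (lowest, median and highest) in Fasn-high livers and 13.12, 13.85 and 14.19 in Fasn-low livers. The groups did not overlap, and the adjusted difference of 0.95 corresponds to 1.93-fold. It was 1.02 among ChREBPβ-deficient livers, 0.87 among WT littermates, 1.14 on the first scan day and 0.59 on the second. Over 29 alternative settings it remained between 0.72 and 1.12.

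Acly, which makes cytosolic acetyl-CoA, read 15.91, 16.36 and 17.00 in Fasn-high against 15.45, 15.84 and 16.11 in Fasn-low livers, a difference of 0.65. Acaca, which makes malonyl-CoA, read 14.19, 14.45 and 14.89 against 13.48, 13.92 and 14.31, also a difference of 0.65. In both genes the lower Fasn-high livers overlapped the upper Fasn-low livers. All 6 probes of Acaca differed in the same direction, by 0.53 to 0.69. Me1 read 14.85, 15.14 and 15.62 against 13.93, 14.46 and 15.12, a difference of 0.73 with a marginal overlap. Thrsp, a cofactor of the lipogenic response known as Spot 14, read 16.16, 16.62 and 17.12 against 15.37, 16.18 and 16.48, a difference of 0.67. These 4 genes were higher within each genotype, by 0.58 and 0.74 for Acly, 0.66 and 0.63 for Acaca, 0.58 and 0.91 for Me1, and 0.76 and 0.56 for Thrsp, in ChREBPβ-deficient and WT livers respectively. On the second scan day all 4 differences were smaller than on the first, at 0.45, 0.41, 0.60 and 0.41 against 0.80, 0.76, 0.70 and 0.83.

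The patatin-like lipases Pnpla3, a lipid droplet protein, and Pnpla5 completed the 8 genes. Pnpla5 read 9.35, 10.10 and 11.84 in Fasn-high and 8.94, 9.56 and 10.86 in Fasn-low livers, with broad overlap and a difference of 0.79. Pnpla3 read 8.09, 9.43 and 10.84 against 7.83, 8.75 and 9.84, and its difference of 0.62 was uneven between genotypes, at 0.30 in ChREBPβ-deficient and 1.02 in WT livers. The differences on the first and second scan days were 0.92 and 0.47 for Pnpla5 and 0.71 and 0.33 for Pnpla3.

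The desaturases differed less or in the opposite direction. Scd1, the stearoyl-CoA desaturase most abundant in liver, read 16, 16.28 and 16.96 in Fasn-high and 15.36, 15.99 and 16.71 in Fasn-low livers, with overlapping groups and a difference of 0.28. Fads1 and Fads2, which desaturate polyunsaturated fatty acids, had differences of −0.29 and −0.36. Scd2 had a difference of −0.48, which was −0.97 on the first and 0.11 on the second scan day. Slc25a1, the mitochondrial citrate carrier, had a difference of −0.01. The second acetyl-CoA carboxylase, Acacb, differed by 0.15, and the acetate-activating enzyme Acss2 by 0.23.

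**Figure D2:**
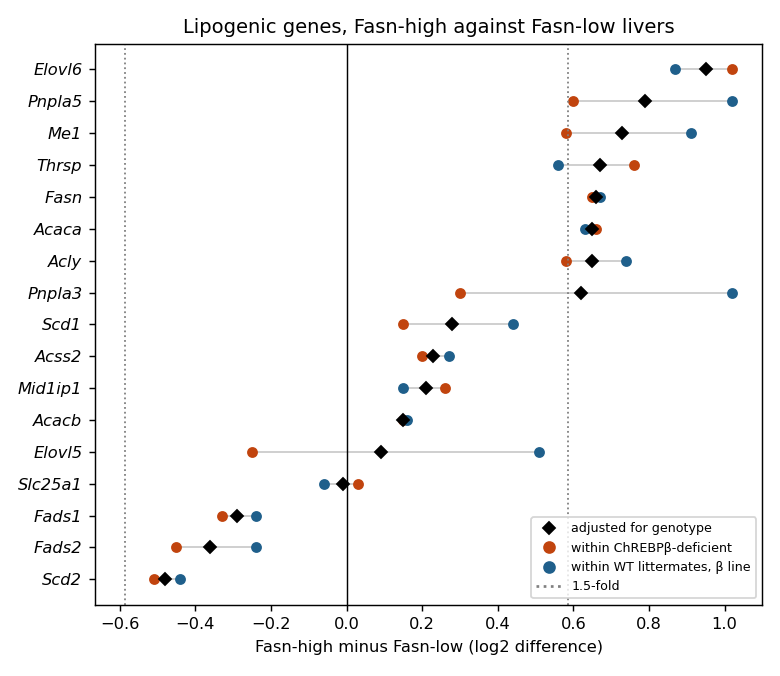
Difference in log2 level between Fasn-high and Fasn-low livers for the 17 genes of the lipogenic core, adjusted for genotype (diamonds) and within each genotype (circles), with dotted lines at 1.5-fold. Fasn is shown although it defined the groups. The 8 genes past the right dotted line run from Elovl6 at 0.95 to Pnpla3 at 0.62, and the 3 lowest are Fads1, Fads2 and Scd2.

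Srebf1 mRNA differed little between the groups. Its levels were 15.16, 15.44 and 15.58 in Fasn-high and 14.66, 15.38 and 15.54 in Fasn-low livers, a difference of 0.08. None of the 9 regulators of the SREBP and LXR list, among them Scap, Insig1 and Nr1h3, reached 1.5-fold in either direction, and the median difference was 0. Of 22 measured genes of cholesterol synthesis and uptake, 0 reached 1.5-fold, 18 differences were positive and the median was 0.07. Over all genes 0.35% were higher and 0.476% lower by that amount, so counts of 0 do not set lists of this size apart.

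Of 13 genes that respond to ChREBP and glucose, 3 were at least 1.5-fold higher in Fasn-high livers. After adjustment for genotype the median difference was 0.19 and all 13 were positive, but those of Mlxipl (0.08) and Rgs16 (0.03) were small, with unadjusted means of 14.81 against 14.91 and 13.71 against 13.78 that were lower in Fasn-high livers. The difference of Mlxipl ranged from −0.11 to 0.22 over 29 alternatives. Pklr, the liver pyruvate kinase and a classical ChREBP target, read 10.17, 10.78 and 10.98 in Fasn-high and 9.15, 10.07 and 10.38 in Fasn-low livers, with a difference of 0.76. The overlap was small, and the difference was 0.97 in ChREBPβ-deficient livers, 0.49 in WT littermates, 1.02 on the first and 0.37 on the second scan day. Tkfc and Khk, kinases of fructose breakdown, differed by 0.68 and 0.56, by 0.90 and 0.67 on the first and by 0.33 and 0.32 on the second scan day. G6pc, the glucose-6-phosphatase that releases glucose, differed by 0.73 but by 0.26 in ChREBPβ-deficient and 1.30 in WT livers, by 1.28 on the first and 0.05 on the second scan day, and by −0.20 with the replicate number as a block. Txnip, which restrains glucose uptake, differed by 0.17, and Rgs16, a regulator of G protein signaling, by 0.63 on the first and −0.58 on the second scan day. Rpia, an isomerase of the pentose phosphate pathway, was the 1 gene of 9 in the NADPH list past 1.5-fold, at 8.57, 8.62 and 9.36 against 7.69, 8.38 and 8.81. Its difference was 0.92 on the first and 0.18 on the second scan day. Pgd and Tkt of the same pathway differed by 0.37 and 0.38. Of 15 glycolysis genes 0 reached 1.5-fold, with Gpi1 at 0.55, Pdk1 at 0.46 and Ldha at −0.21. Of 17 triglyceride and droplet genes 0 reached 1.5-fold, with Gpam, the first acyltransferase of triglyceride synthesis, at 0.57. Beside the shares of 0.35% and 0.476% over all genes, the counts of 0 do not set the glycolysis and triglyceride lists apart.

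Outside the lists examined here, Ttc23 and NAP092820-001 were the 2 genes both at least 1.5-fold higher and without overlap, and their probe positions are given. Ttc23, at chr7:74871398-74871457 on the plus strand of mm9, read 11.70, 11.77 and 12.33 in Fasn-high and 10.86, 11.44 and 11.65 in Fasn-low livers, with a difference of 0.81 on the first and 0.34 on the second scan day. Its dimmer probes overlapped between the groups, with differences of 0.54, 0.34 and 0.14. NAP092820-001, known from its probe at chr13:22375584-22375643 on the plus strand of mm9, read 10.10, 10.36 and 11.32 against 9.02, 9.68 and 10.09. Its difference of 0.97 was 1.1 in ChREBPβ-deficient and 0.80 in WT livers, and 1.18 and 0.62 on the first and second scan days. The other higher genes without overlap had smaller differences, among them the carboxylesterase Ces1d at 0.47, Gypc at 0.40 and the cytochrome P450 Cyp2c38 at 0.37.

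**Figure D3:**
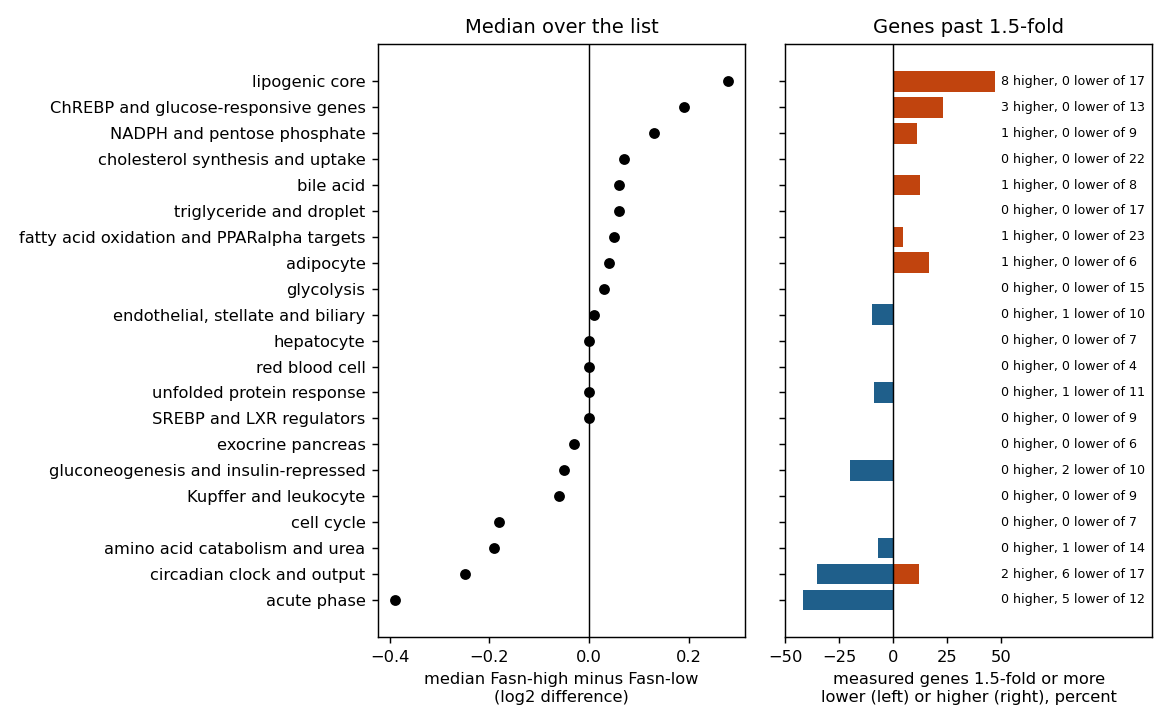
Left, median log2 difference between Fasn-high and Fasn-low livers for each of 21 gene lists. Right, percentage of the measured genes of the list that were at least 1.5-fold higher (to the right) or lower (to the left), with the counts printed. The lipogenic core lies at one end with a median of 0.28 and the acute phase list at the other with −0.39.

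Acute phase genes, which the liver makes in inflammation, had the lowest median of the lists. All 12 were measured, 0 had a positive difference, the median was −0.39 and 5 were at least 1.5-fold lower in Fasn-high livers. Saa1, the main inducible serum amyloid A, read 12.38, 12.77 and 13.68 in Fasn-high and 13.41, 14.71 and 17.37 in Fasn-low livers, a difference of −1.78 or 3.43-fold. The upper end of the Fasn-high livers met the lower end of the Fasn-low livers. The differences were −1.18 in ChREBPβ-deficient and −2.52 in WT livers and −2.03 and −1.54 on the first and second scan days. Saa2 (−1.81), the siderophore-binding lipocalin Lcn2 (−1.64), Saa3 (−1.09) and the iron hormone hepcidin, Hamp (−0.72), were the others. On the second scan day these 4 differed by −1.46, −1.23, −0.50 and −0.13. The mean level of the list was highest in WT replicates 6 and 8, at 15.96 and 15.86, both Fasn-low. Without these 2 livers the difference was −1.39 for Saa1 and −1.21 for Lcn2. Nfkbiz, an inflammation-induced regulator of NF-κB, read 7.41, 7.54 and 7.78 against 7.79, 8.15 and 8.94, without overlap but by a narrow margin. Its second, dimmer probe differed by −0.56 and did overlap, with a highest level of 6.61 in Fasn-high and a lowest of 6.51 in Fasn-low livers. Camk2n2, also without overlap, differed by −0.69, with −1.10 on the first and −0.22 on the second scan day. Clu, the secreted chaperone clusterin, also did not overlap, at 17.04, 17.16 and 17.19 against 17.22, 17.30 and 17.41, although the difference was −0.18.

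Gluconeogenic genes repressed by insulin were lower in part. Of 10 genes, 2 were at least 1.5-fold lower, beside 0.476% of all genes, and the median difference was −0.05. Pck1, which commits carbon to glucose, read 13.62, 14.43 and 15.84 in Fasn-high and 15.11, 15.57 and 16.16 in Fasn-low livers. Its difference was −1.03, with −1.38 in ChREBPβ-deficient and −0.60 in WT livers, and 1 Fasn-high liver, WT replicate 7 at 15.84, lay within the range of the Fasn-low livers while the other 6 lay below it. Sds, which degrades serine, read 10.51, 11.94 and 12.74 against 12.12, 12.73 and 14.06, a difference of −1.13. The differences on the first and second scan days were −1.33 and −0.73 for Pck1 and −1.58 and −0.57 for Sds. Fbp1 and Ppargc1a differed by 0.01 and 0. Igfbp1, an insulin-repressed secreted protein, differed by 0.36 with a spread of 11.78 to 15.62 in Fasn-high and 11.17 to 15.14 in Fasn-low livers.

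Of 14 genes of amino acid catabolism and the urea cycle 1 difference was positive, the median was −0.19, and the glutaminase Gls2 was at least 1.5-fold lower, at −0.59, with −0.86 and −0.24 on the first and second scan days. Asns, the asparagine synthetase induced by amino acid shortage, read 8.70, 9.81 and 10.05 in Fasn-high and 9.52, 10.70 and 12.08 in Fasn-low livers, a difference of −0.96 that was −1.22 and −0.51 on those days. Among 23 genes of fatty acid oxidation and PPARα targets 1 was at least 1.5-fold higher and 0 lower. It was the hormone Fgf21, at 9.96, 11.04 and 11.72 against 8.82, 10.12 and 10.74, with a difference of 1.06 that was 0.43 in ChREBPβ-deficient and 1.84 in WT livers. Cpt1a, the gate to mitochondrial oxidation, differed by −0.56.

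Clock-controlled genes varied widely between single livers. Of 17 genes, 6 were at least 1.5-fold lower and 2 higher in Fasn-high livers, beside 0.476% and 0.35% of all genes. Dbp, a transcription factor under direct clock control, read 8.22, 10.05 and 14.51 in Fasn-high and 8.61, 13.70 and 15.26 in Fasn-low livers, and its difference of −2.19 was −0.99 in ChREBPβ-deficient and −3.70 in WT livers, and −2.64 and −1.77 on the first and second scan days. Both groups held livers at each end, so Dbp did not order the livers as Fasn did. Usp2, Per3, Tef, Nr1d2 and Nr1d1 differed by −1, −0.99, −0.86, −0.68 and −0.61. Arntl and Nfil3, whose mRNA peaks in the opposite phase, differed by 0.73 and 0.66, but by −0.14 and −0.06 among ChREBPβ-deficient livers.

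**Figure D4:**
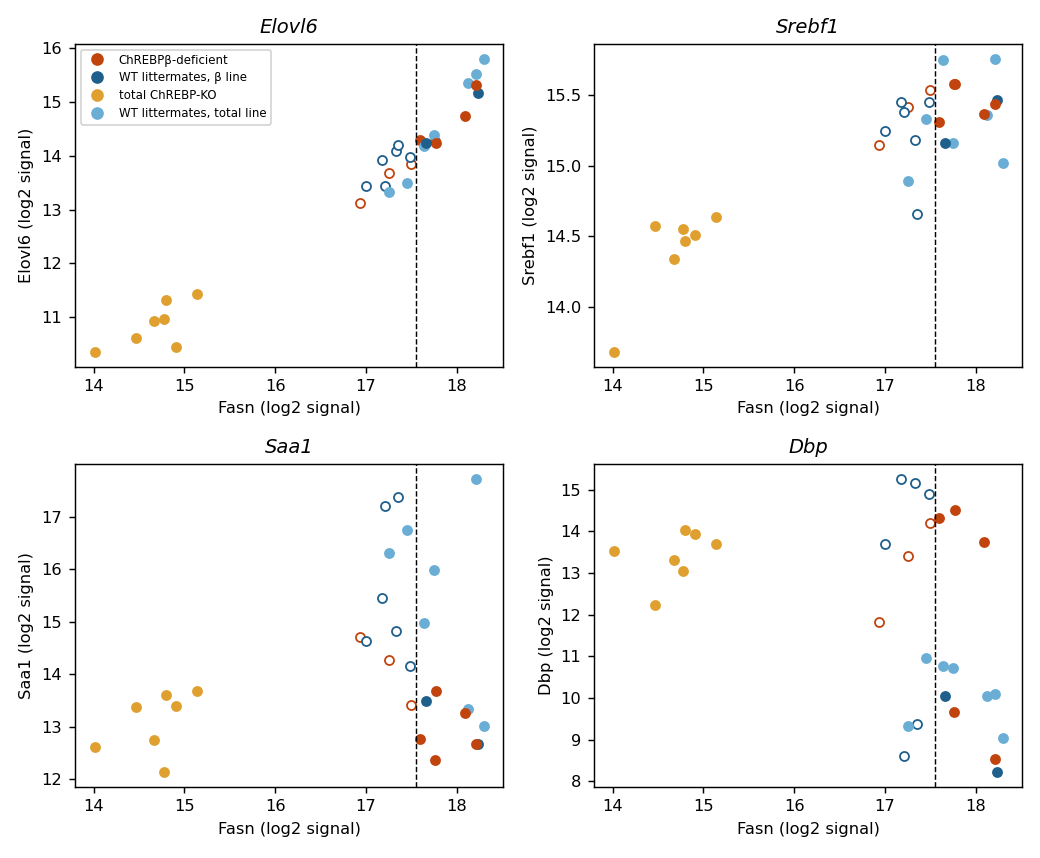
Log2 level of Elovl6, Srebf1, Saa1 and Dbp against the Fasn value in each liver of both lines. Open circles are Fasn-low livers of the ChREBPβ line and the dashed line is the threshold of 17.55. Elovl6 follows Fasn in the ChREBPβ line and in the WT livers of the second line, whereas Srebf1 spans 14.66 to 15.58 in the ChREBPβ line without such an order.

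Among markers of other cell types 2 genes passed 1.5-fold. Cfd, the adipocyte protease adipsin, differed by 0.65, with −0.32 in ChREBPβ-deficient and 1.87 in WT livers and −0.18 on the second scan day, while the other 5 measured adipocyte genes differed by −0.08 to 0.34. Col1a1, a collagen of stellate cells, differed by −0.62. The 4 red blood cell genes differed by −0.11 to 0.09. Of 8 bile acid genes Cyp8b1, of cholic acid synthesis, was at least 1.5-fold higher at 0.62, of 11 genes of the unfolded protein response Asns was the 1 past 1.5-fold, and of 7 cell cycle genes 0 were. The part of other cell types in the differences above was not tested.

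No gene was shown to differ with Fasn in a way that depended on ChREBPβ. Differences between Fasn-high and Fasn-low livers were compared between genotypes by an interaction term in limma, and 0 genes (0%) passed at an adjusted p of 0.05, the smallest adjusted p being 0.757. At an unadjusted p under 0.05 there were 1333 genes (5.56%). For Elovl6 the interaction was 0.15 ± 0.41 (SE) and for Acly −0.17 ± 0.37. Its WT side rests on 2 Fasn-high livers. The genotype term in the same model, the effect of ChREBPβ deficiency at the same Fasn group, gave 0 genes (0%). The smallest adjusted p was 0.218, and 1167 genes (4.87%) had an unadjusted p under 0.05. Mlxipl, the edited gene, had this adjusted p of 0.218 (limma) at a difference of −0.48 ± 0.08 (SE). It was not called although its brightest probe did not overlap between genotypes, which limits what the absence of calls can show. At the same Fasn group Elovl6 was −0.22 and Acly −0.01 in ChREBPβ-deficient relative to WT livers. Because livers are compared within a Fasn group, this term cannot show a genotype effect that runs with that group.

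Whether the same genes vary with Fasn elsewhere was tested in the second line, which the split had not used. Replicates 7 and 8 of its WT littermates differed by a root mean square of 0.092 over 15894 probes, less than the 0.17 between spots of the same probe on an array and less than the 0.175 to 0.413 of other pairs within a group. They differed by less than the technical noise and were counted as 1 sample, and whether they are 1 RNA hybridized again is not given in the sources used here. This left 7 WT littermates and 7 total ChREBP-KO mice. Fasn ranged over 1.05 log2 units among the former, from 17.25 to 18.30, and over 1.13 among the latter, from 14.01 to 15.14. The slope of each gene on Fasn, in log2 units per log2 unit, was fitted for each genotype with limma, so that a slope of 1 means that a gene changed as much as Fasn. The gene and Fasn were read on the same array and share its error.

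Among WT littermates, 96 of 23967 genes (0.401%) had a positive and 37 (0.154%) a negative slope at an adjusted p under 0.05. Of the 96, 88 were also higher in Fasn-high livers of the ChREBPβ line, and of the 37, 33 were lower, where 12026 of all 23968 genes were higher and 11942 lower. Of the 84 genes at least 1.5-fold higher in Fasn-high livers 22 had a positive slope that passed, and of the 114 lower genes 0 had a negative one. These counts depend on scan day and on single livers. With scan day as a block 53 positive and 8 negative slopes passed. Without WT replicate 3, 1 or 5 the positive slopes numbered 52, 54 or 56, and the negative slopes numbered 9 without WT replicate 1, 12 without WT replicate 3, 23 without WT replicate 7 and 64 without total ChREBP-KO replicate 7.

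The lipogenic core was again the list with the most slopes, with 6 positive and 0 negative among 16 genes and a median slope of 1.26, against −0.01 over all genes. Acly read 15.39, 15.52, 15.84, 16.09, 16.80, 17.15 and 17.30 in the 7 WT livers in the order of their Fasn values, rising at each step. Its slope was 1.91 ± 0.15 (SE, limma, adjusted p = 0.000157). Elovl6 read 13.32, 13.50, 14.18, 14.38, 15.34, 15.52 and 15.80 in the same order, with a slope of 2.44 ± 0.23 (SE, limma, adjusted p = 0.000376). Acaca rose by 1.24 ± 0.14 (SE, limma, adjusted p = 0.000688), and each of its 6 probes passed. Pnpla5 (3.60, adjusted p = 0.00335), Me1 (1.92, adjusted p = 0.0184) and Pnpla3 (2.74, adjusted p = 0.0331) were the others by limma. The call was lost without WT replicate 1, 3 or 5 for Me1, without WT replicate 5 for Pnpla5, and without WT replicate 1, 3, 4, 5 or 7 or total ChREBP-KO replicate 4 for Pnpla3. The calls of Pnpla5 and Pnpla3 were also lost with WT livers fitted alone. That of Pnpla3 was lost with scan day as a block and with the processed signal as well. Thrsp had a slope of 1.76 and Scd1 of 1.49, with limma adjusted p-values of 0.0809 and 0.121, although a second, dimmer Scd1 probe passed (adjusted p = 0.0339). Fasn ran with scan day among these livers. The WT livers highest in Fasn, replicates 1, 4 and 3 at 18.30, 18.21 and 18.12, were all scanned on the first day. Slopes within the 2 scan days were 2.07 and 1.33 for Acly, 2.68 and 2.14 for Elovl6, and 1.52 and 0.72 for Acaca. They rest on replicates 1 to 4 for the first day and on replicates 5, 6 and the merged 7 for the second. With scan day as a block the slopes of Acly, Elovl6 and Acaca still passed.

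NAP092820-001 and Ttc23, the 2 transcripts outside the lists that were 1.5-fold higher without overlap in the ChREBPβ line, had positive slopes here. NAP092820-001 read 9.16, 9.35, 10.33, 10.31, 11.29, 11.69 and 11.98 in the order of Fasn, with a slope of 2.71 ± 0.28 (SE, limma, adjusted p = 0.000465). Ttc23 had a slope of 1.06 ± 0.20 (SE, limma, adjusted p = 0.0312), which passed in 16 of 27 alternatives and not with scan day as a block or without WT replicate 1, 2, 3, 5 or 6. Of its dimmer probes, that with a slope of 0.98 passed (limma, adjusted p = 0.0239). Those with slopes of 0.51 and 0.28 did not (limma, adjusted p = 0.166 and 0.606). The remaining higher genes without overlap did not pass, nor did any of the lower ones, with a slope of −0.94 for Camk2n2 and −0.45 for Nfkbiz.

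By limma, slopes also passed for Pklr (1.82, adjusted p = 0.00876) and Khk (0.99, adjusted p = 0.0433) of the 13 ChREBP and glucose-responsive genes, all of which had positive slopes with a median of 0.67. Of the 9 NADPH genes Pgd, the second dehydrogenase of the pentose phosphate pathway, rose by 1.75 (limma, adjusted p = 0.00127) and Rpia by 1.11 (limma, adjusted p = 0.00164). Gpi1 and Pdk1 of the glycolysis list rose by 1.12 and 1.71 (limma, adjusted p = 0.00983 and 0.000721), and Gpam of the triglyceride list by 0.99 (limma, adjusted p = 0.0296). The slope of Khk passed in 10 and that of Gpam in 17 of 27 alternatives, neither with scan day as a block, and that of Pklr was lost without WT replicate 5 and that of Gpi1 without WT replicate 1. Of 9 SREBP and LXR regulators and 22 cholesterol genes 0 passed, beside 0.401% positive and 0.154% negative over all genes, with a Srebf1 slope of 0.22. No gene of the other lists had a positive slope that passed. The steepest positive slopes beside Pnpla5 and Pnpla3 were those of Artn (3.69), which encodes the neurotrophic ligand artemin, Cabp2 (3.54) and Gm35986 (3.07).

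Genes that fell with Fasn in WT livers included enzymes of amino acid breakdown. Tdo2, which opens the tryptophan ring, fell by 1.14 and Aass, of lysine breakdown, by 0.84 per log2 unit of Fasn (limma, adjusted p = 0.0179 and 0.0312). Their differences in the ChREBPβ line were −0.22 and −0.29. The slopes of Tdo2 and Aass passed in 17 and 14 of 27 alternatives, and both were lost without WT replicate 1, 3 or 4. Creb3l3, a liver transcription factor induced by fasting, fell by 0.94 (limma, adjusted p = 0.0311), a call lost without WT replicate 1, 3, 4 or 5, and the steepest decrease was that of Derl3, of endoplasmic reticulum protein degradation, at −3.29 (limma, adjusted p = 0.00449). The next steepest were Hist2h3c2 (−1.69), Ccbl1 (−1.20) and Gm11223 (−1.14). Differences in the ChREBPβ line were 0.05 for Hist2h3c2, −0.03 for Ccbl1, −0.09 for Creb3l3, −0.42 for Derl3 and −0.44 for Gm11223. With scan day as a block the slopes of Aass, Creb3l3 and Gm11223 no longer passed. Pck1 had a slope of −2.82 with a limma adjusted p of 0.0514. No acute phase gene and no clock gene passed, with slopes of −1.87 for Saa1 and −0.57 for Dbp, and WT replicate 4 combined a Fasn value of 18.21 with the highest Saa1 level of its group, 17.72.

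Exocrine pancreas markers were raised in 2 WT livers of the second line. The mean of 6 measured genes was 12.01 in replicate 2 and 10.86 in the merged replicate 7, against 9.09 to 9.33 in the other 5, and these livers had Fasn values of 17.45 and 17.75. Without them 48 positive and 15 negative slopes passed, and the slope was 1.85 for Acly, 2.33 for Elovl6 and −3.23 for Derl3, each still passing, while that of Me1 was 1.67 with a limma adjusted p of 0.077. The slopes of Ttc23, Khk, Gpi1, Gpam, Tdo2, Aass, Hist2h3c2, Ccbl1 and Gm11223 also no longer passed without these 2 livers.

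In total ChREBP-KO livers no slope passed by limma, with 0 positive (0%) and 0 negative (0%). At an unadjusted p under 0.05 there were 1751 of 23968 genes, Fasn itself included. Leaving out total ChREBP-KO replicate 8 gave 8 positive and 102 negative slopes, and leaving out replicate 1 gave 3 and 66. The lipogenic core had a median slope of 0.75. Elovl6 read 10.36, 10.61, 10.93, 10.97, 11.33, 10.46 and 11.44 in the order of Fasn, with a slope of 0.81 (limma, adjusted p = 0.415). Scd1 had the steepest slope of the list, 3.17 (limma, adjusted p = 0.0741), and its levels of 10.75 to 14.53 were lowest in replicate 5, the liver with the lowest Fasn. Acly had a slope of 0.77 (limma, adjusted p = 0.139), and Pklr, at 6.13 to 6.74, a slope of 0.02.

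**Figure D5:**
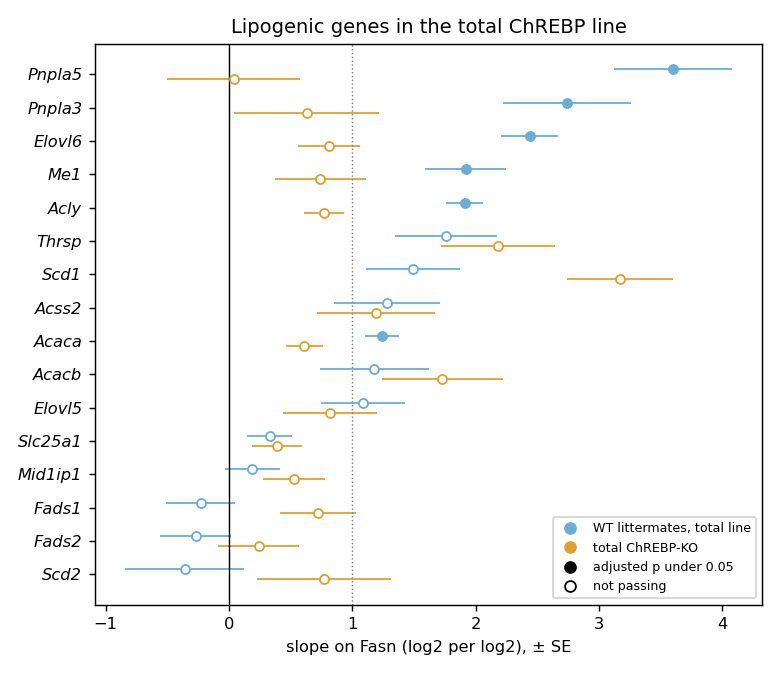
Slope on Fasn for 16 genes of the lipogenic core in 7 WT littermates and 7 total ChREBP-KO mice of the second line, in log2 per log2 unit, with bars of 1 SE. Filled points passed at an adjusted p under 0.05, and the dotted line marks a slope of 1, as steep as Fasn itself. The 6 filled points are WT slopes between 1.24 for Acaca and 3.60 for Pnpla5.

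A difference of slopes between total ChREBP-KO and WT livers passed in 9 genes (0.0376%) by limma, 7 negative and 2 positive, each with an adjusted p of 0.0429. These calls numbered 0 and 0 with scan day as a block, with the processed signal, with weight 1 on all arrays, with no filter, and without total ChREBP-KO replicate 1, 2, 4, 5 or 7 or WT replicate 3, 4, 6 or 7. None of the 16 lipogenic genes was among them, with a difference of −1.62 for Elovl6 (limma, adjusted p = 0.174) and −1.14 for Acly (limma, adjusted p = 0.148). A slope that passed in WT and not in total ChREBP-KO livers was therefore not shown to differ between them for these genes.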

How the data were processed

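One-color Agilent SurePrint G3 Mouse arrays were used to read 31 labelled liver RNA samples of male C57BL6/J mice. The authors deposited Feature Extraction 10.10.1.1 output with unnormalized spot intensities. The authors also deposited log2 values, made by keeping well-measured spots, quantile normalization and taking the median over copies of a probe. Here log2 of the median intensity was filtered by the same weights (26 arrays or 6 of 1 group) and quantile normalized, which correlated at 0.9999954 with the deposited values and kept 36059 probes of 23968 gene names, each represented by its brightest probe. Gene names and probe positions are those of the array design, on build mm9 per the file headers. Median local background was 15 to 33 and the 75th percentile of signal 405 to 598 per array, and precision is limited by the number of arrays.

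Groups came from the sample labels, and the Fasn groups from the deposited value of Fasn probe A_51_P321126. The members, the gene lists and the tests were chosen with earlier results of these data known. Differences between Fasn groups come from limma 3.58.1 in R 4.3.3 with genotype as covariate and are descriptions. Interaction and genotype terms in the ChREBPβ line, and slopes on Fasn in the second line (a mean and a slope per genotype, Fasn probes left out), were tested with limma and Benjamini-Hochberg adjustment over all probes at 0.05, and a gene is called by its brightest probe. Nothing in the labels ties the mice to litters or cages, so p-values measure the spread between these samples, which may be technical. The slopes had been planned on 15 arrays, but WT replicates 7 and 8 were averaged, and the 15 arrays are an alternative chosen after seeing the data, as are those without the 2 livers highest in pancreas or acute phase genes. The steps were tested on simulated data. Some members of the lists are counted but their values are not reported here.

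Named genes are Fasn, Mlxipl, the list members, among genes without overlap and well above background where higher, the 10 with the largest increase and the 10 with the largest decrease, and the 5 steepest slopes in each direction. Other alternatives were the processed signal scaled to the 75th percentile, normexp (offset 50), the deposited values, other filters, scan day, slide or replicate number as a block, single genotypes, no genotype term, Fasn as a continuous value, a common slope, and leaving out arrays. Files were read with the package data.table, version 1.17.8, and figures drawn with matplotlib 3.10.9.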

Additional observations from a re-analysis of the deposited data

Results flagged for a closer look

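In 9 genes the slope on Fasn passed the test of the difference between total ChREBP-KO mice and WT littermates (limma, adjusted p = 0.0429 for each), 7 with a lower and 2 with a higher slope without ChREBP. None passed with scan day or replicate number as a block, with the processed signal, with weight 1 on all arrays, with no filter, or without total ChREBP-KO replicate 1, 2, 4, 5 or 7 or WT replicate 3, 4, 6 or 7, while 24 and 2 passed without total ChREBP-KO replicate 8 and 12 and 4 without WT replicate 5. The differences were −3.85 for Artn, −3.47 for Cabp2, −2.1 for Hmmr, −1.69 for Ttc25, −1.62 for Kcnab3, −1.44 for ENSMUST00000197435, −1.39 for Hormad2, 1.05 for Fes and 1.21 for Ear1. Artn had a slope of 3.69 ± 0.38 (SE) in WT and −0.17 ± 0.42 in total ChREBP-KO livers, where its probe was well above background on 4 of 7 samples. Cabp2 was well above background in 5, Hmmr, Fes and Ear1 in 7, Kcnab3 in 4, Hormad2 in 3, ENSMUST00000197435 in 1 and Ttc25 in 0 of the 7 total ChREBP-KO samples. Hmmr, a hyaluronan receptor of the mitotic spindle, was measured in all 14 samples, with a slope of 2.07 in WT and −0.03 in total ChREBP-KO livers.

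Single livers stood far from the rest of their group in 4 of 120 combinations of gene and group, where chance gives about 1 in 20. Total ChREBP-KO replicate 5, with the lowest Fasn of all livers, had the lowest Scd1 (10.75) and the lowest Srebf1 (13.68) of its group. Srebf1 was also lowest in the Fasn-low WT replicate 8 of the ChREBPβ line, at 14.66. G6pc was at 14.12 in WT replicate 2 of the second line, the liver with the highest level of exocrine pancreas genes.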

How the results depend on the processing

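The number of genes at least 1.5-fold higher (84) was 151 with the processed signal, 54 with normexp, 48 with weight 1 on all 31 arrays, 252 in WT arrays alone and 128 without the arrays on either side of the threshold, and the number lower (114) was 239 with the processed signal, 67 with weight 1 on all arrays, 305 in WT arrays alone and 181 without those beside the threshold. Leaving out 1 array gave 51 to 115 higher and 88 to 159 lower genes. Genes without overlap numbered 11 higher and 14 lower, and 454 and 528 in ChREBPβ-deficient arrays alone, 1439 and 1428 in WT arrays alone, 55 and 48 without the arrays beside the threshold, 27 and 31 without the 2 arrays highest in acute phase genes, and 11 to 29 and 15 to 29 with 1 array left out, where fewer arrays were compared. Interaction and genotype terms gave 0 genes under every alternative run, with 0 to 0 when 1 array was left out.

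WT slopes in the second line were 96 positive and 37 negative. Positive slopes numbered 53 with scan day as a block, 0 with the replicate block, 10 with a common slope, 35 without the 2 samples farthest in Fasn and 48 without the 2 highest in pancreas genes. Negative slopes numbered 14 with the processed signal, 72 with normexp, 8 with scan day, 0 with the replicate block, 19 with WT fitted alone, 2 with a common slope, 57 with 15 arrays, 14 without the farthest and 15 without the pancreas samples. With 1 sample left out they ranged from 52 to 124 and from 9 to 64. Total ChREBP-KO slopes, 0 in each direction, were 1 negative with the replicate block and 3 positive and 1 negative with 15 arrays, and 0 to 8 positive and 0 to 102 negative with 1 sample left out. Differences of slopes, 7 negative and 2 positive, were 0 and 0 with the processed signal, weight 1 on all arrays, no filter, scan day or the replicate block, 2 and 0 with normexp, 29 and 9 with slide as a random block, 2 and 0 without the pancreas samples, and 1 positive without the farthest. They ranged from 0 to 24 and 0 to 4 with 1 sample left out. The causes were not tested.

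Acly, Acaca and Elovl6 passed in 26 of 27 alternatives, failing with the replicate block, Pnpla3 in 14 of 26 and Khk in 10 of 27. The sign turned for Arntl (−0.14), Cfd (−0.32) and Nfil3 (−0.06) in ChREBPβ-deficient arrays alone and for G6pc (−0.2) with the replicate block. Replicate numbers are shared by groups, and nothing in the labels makes them pairs, so they were not taken as pairs. Same-numbered deviations correlated at 0.45, 0.53, 0, 0.44, 0.12, −0.16, 0.23 and 0.13 for replicates 1 to 8 of the ChREBPβ line. In the second line they correlated from −0.23 to 0.17. Whether same-numbered mice of the ChREBPβ line share a litter or a handling batch was not tested. Probes not well above background, such as that of Ttc25 in total ChREBP-KO livers, limit what a slope can show.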
